A study of Mus musculus with 16 samples.

Results

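The genes described here are 10 genes of the endothelial cells that line the liver sinusoids: Ptprb, Kdr, Stab1, Stab2, Eng, Fcgr2b, Flt4, Clec4g, Adgrf5 and Pecam1. They were found by symbol: every probe set that the platform annotation gave to exactly 1 of these symbols was taken. That gave 20 probe sets for the 10 genes, of 18194 genes named in all. The probe set of each gene with the highest mean entered the tests, and all 10 genes passed the filter on low signals, as did 12148 genes in all. No measured value entered the choice by symbol, but the genes were listed with earlier results of these data known.

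The 16 arrays, each of RNA from perfused mouse liver, form 8 groups of 2. The knockout animals were Alb/Cre Perk-/- mice and the wild-type animals their littermates, all 3 to 6 months old. Single-pass perfusion used a buffer with 0.1 mM CaCl2, either with tBuHQ or without it, and RNA was taken from the polysomes of a 20 to 47% sucrose gradient or from the unfractionated sample. The groups are therefore knockout with tBuHQ, knockout untreated, wild type with tBuHQ and wild type untreated, each as polysome RNA and as unfractionated RNA. tBuHQ is a di-tert-butylhydroquinone that blocks calcium uptake into the endoplasmic reticulum (ER), and the labels name different isomers of it. All livers were perfused, the untreated ones included. Each array held RNA pooled from 2 livers, so the 2 arrays of a group give the spread between pools and not between animals.

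Liver sinusoidal endothelial cells form the wall between blood and hepatocytes. They carry open pores, lack a continuous basement membrane and clear macromolecules and immune complexes from blood through scavenger and Fc receptors. Their identity and permeability depend on vascular endothelial growth factor (VEGF) receptor signalling. Perk, the product of Eif2ak3, is an ER kinase that phosphorylates eIF2 alpha and lowers protein synthesis under ER stress. The albumin promoter that drives Cre here is active in hepatocytes, so sinusoidal endothelial cells of the knockout livers are expected to keep Perk, and the arrays did not measure these cells apart from the others. In RNA of whole liver, fewer cells of a type and less RNA per cell cannot be told apart. Eif2ak3 itself read 26.3 to 49.2 on the 8 knockout arrays and 46.1 to 216 on the 8 wild-type arrays, and was lower in knockout liver by 1.31 ± 0.17 on the log2 scale over the 4 treatment and fraction strata (±SE, limma adjusted p = 0.0103).

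RefSeq promoter windows on GRCm38.p6, from 250 bases before to 50 bases after a gene's start, were available for 8 of the 10 genes. They are shown because endothelial genes are known targets of ETS transcription factors, and the windows let the members be compared by a feature that the arrays did not measure. The letters searched as an ETS core were CNGGAA on both strands, and matches are in capitals. This string is narrower than GGAA alone, which was not searched. It was present in windows of 7 of the 8 genes and in 61.7% of all 32851 windows, so most promoters of the genome hold it too. Kdr (chr5:75978406-75978705, minus strand) and Stab1 (chr14:31168592-31168891, minus strand) had 2 matches each, Flt4 (chr11:49609429-49609728, plus strand) had 1 and the first of 2 windows of Adgrf5 (chr17:43360181-43360480, plus strand) had 3. Fcgr2b (chr1:170976022-170976321, minus strand) had 0, and is printed as the exception to this search. Its window does hold GGAA in other contexts, so it cannot be said to lack ETS sites.
Kdr: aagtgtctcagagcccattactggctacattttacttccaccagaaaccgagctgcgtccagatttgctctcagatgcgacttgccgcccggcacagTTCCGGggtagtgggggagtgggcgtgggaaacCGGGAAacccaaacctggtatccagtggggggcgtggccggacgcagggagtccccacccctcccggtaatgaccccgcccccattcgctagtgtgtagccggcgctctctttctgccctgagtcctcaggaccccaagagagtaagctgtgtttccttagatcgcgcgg
Flt4: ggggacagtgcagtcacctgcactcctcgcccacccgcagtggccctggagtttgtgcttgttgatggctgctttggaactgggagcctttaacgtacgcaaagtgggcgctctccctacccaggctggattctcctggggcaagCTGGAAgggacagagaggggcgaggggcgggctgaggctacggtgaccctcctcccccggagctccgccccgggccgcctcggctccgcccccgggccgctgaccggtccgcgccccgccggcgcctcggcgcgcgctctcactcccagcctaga
Stab1: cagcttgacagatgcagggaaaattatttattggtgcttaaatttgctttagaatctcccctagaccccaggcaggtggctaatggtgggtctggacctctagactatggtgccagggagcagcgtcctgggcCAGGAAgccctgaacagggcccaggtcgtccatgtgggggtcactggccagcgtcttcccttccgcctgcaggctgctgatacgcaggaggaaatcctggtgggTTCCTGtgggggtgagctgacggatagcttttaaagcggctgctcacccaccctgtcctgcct
Adgrf5: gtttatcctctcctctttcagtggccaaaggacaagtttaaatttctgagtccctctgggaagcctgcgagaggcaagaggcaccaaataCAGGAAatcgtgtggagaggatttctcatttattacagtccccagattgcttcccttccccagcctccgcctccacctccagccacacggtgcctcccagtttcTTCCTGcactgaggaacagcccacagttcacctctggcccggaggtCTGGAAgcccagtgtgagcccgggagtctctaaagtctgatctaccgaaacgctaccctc
Fcgr2b: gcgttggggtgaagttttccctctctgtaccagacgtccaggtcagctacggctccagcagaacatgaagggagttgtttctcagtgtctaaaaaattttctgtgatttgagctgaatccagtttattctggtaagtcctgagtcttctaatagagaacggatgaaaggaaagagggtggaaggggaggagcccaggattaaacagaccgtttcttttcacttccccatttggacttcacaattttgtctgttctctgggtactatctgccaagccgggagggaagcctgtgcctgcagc
The TATA box letters TATAAA, searched on both strands, were found in the window of Clec4g and in 13.6% of all windows. In Clec4g the match was on the strand opposite to the gene, so it is not shown to be a TATA box. The forkhead letters TAAACA, which can share bases with TATAAA, were found in the window of Fcgr2b and in 13.4% of all windows. The GATA letters AGATAA were in 0 of the 9 member windows and in 11.2% of all windows. GC content ranged from 47.3% in the second window of Adgrf5 to 70.3% in that of Flt4, against a median of 52.7% over all windows. The genes themselves span 13.6 kb (Clec4g) to 167 kb (Stab2), with a median of 44.7 kb against 22.4 kb over the 12132 tested genes with a known span.

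The deposited values are signals on a linear scale, scaled by the authors to a trimmed mean of 150 on every array. Differences below are of log2(signal + 16), which understates changes of dim genes, and a gene is called at an adjusted p under 0.05 over all 12148 genes. Over all probe sets, 3 unfractionated arrays stood apart from the other 5: both untreated wild-type arrays and knockout tBuHQ array 1. They correlated at 0.973 to 0.975 among themselves, the other 5 at 0.961 to 0.971, and pairs across the sets at 0.948 to 0.964; the 75th percentile of their signals was 105 to 114, against 83.7 to 88.9. The Gapdh ratio of 3' to 5' probe sets was 5.60 on wild-type tBuHQ polysome array 2 and 0.735 to 0.859 on the other 15 arrays. The treatment labels also conflict. All 16 columns of the authors' deposited z score table match, by value, an array whose title names the other treatment, in the same genotype and fraction. Treatments are given here as the array titles give them; by the column names every tBuHQ difference would change sign, and the groups called untreated and tBuHQ would change places in the other comparisons.

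**Figure D1:**
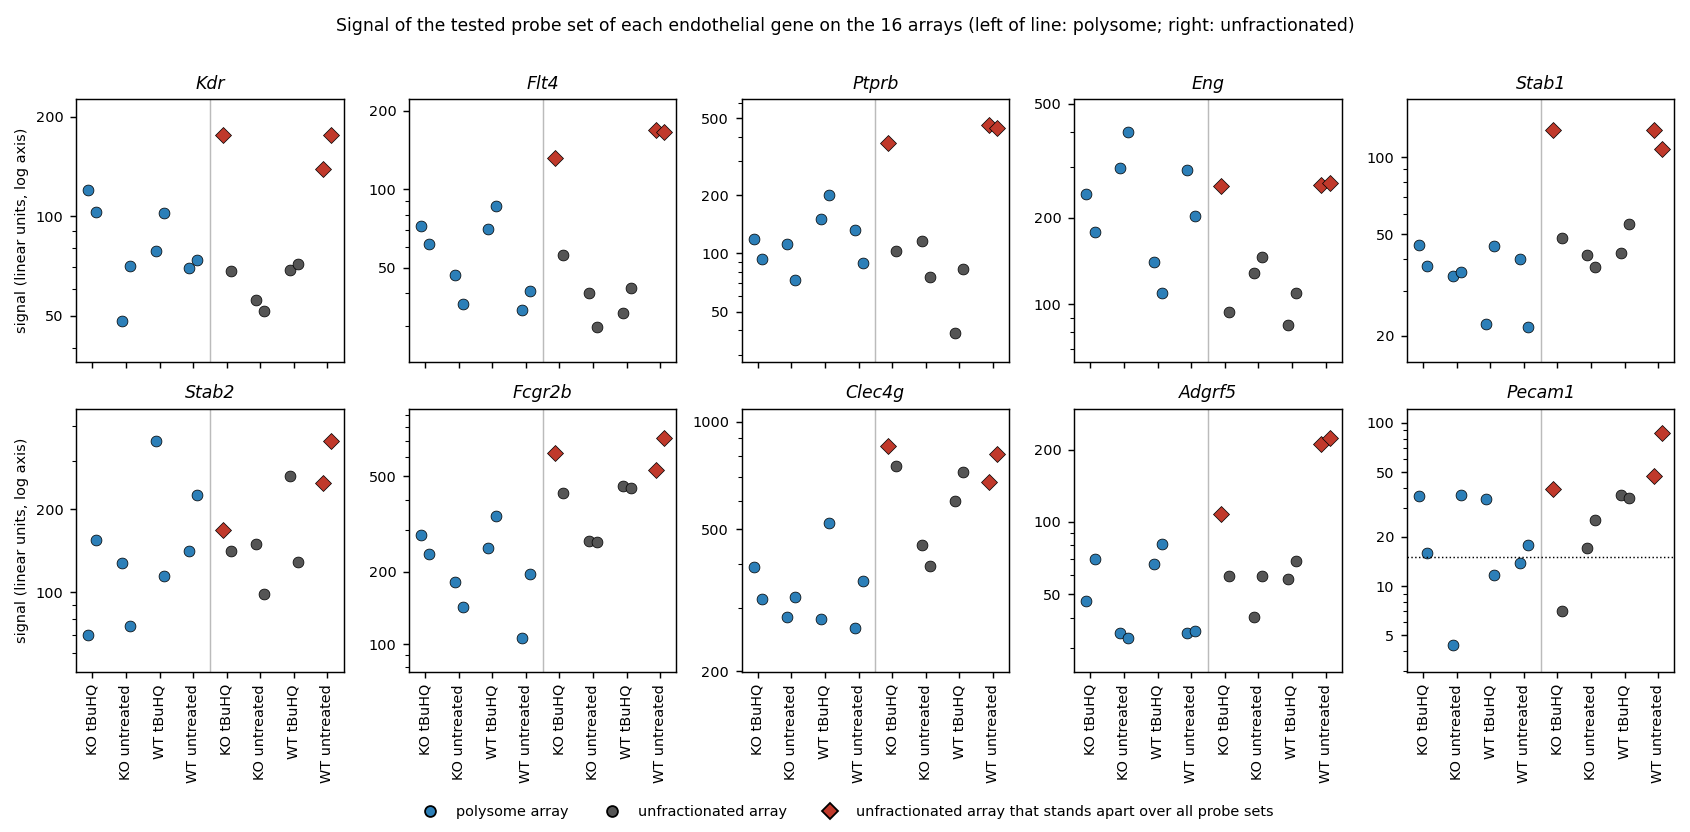
Signal (linear units on a log axis) of the tested probe set of each of the 10 endothelial genes, 1 point per array, with polysome arrays left of the grey line and unfractionated arrays right of it. Diamonds mark the 3 unfractionated arrays that stood apart over all probe sets, and the dotted line in the Pecam1 panel is the highest signal of the absent-control probe sets, 15.1. In 8 of the 10 panels the diamonds lie above all other unfractionated arrays.

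The endothelial genes followed that division of the arrays. For 8 of the 10 genes, all but Stab2 and Clec4g, each of the 3 arrays that stood apart was higher than each of the other 5 unfractionated arrays, and for 0 genes was each lower. Over all tested genes the shares were 17.1% higher and 11.6% lower. The median log2 difference of the 3 from the 5 was 1.15 for the 10 genes and 0.03 for all genes. Of the 20 member probe sets, 13 separated the 3 arrays from the 5 in this way. For Fcgr2b the tested probe set did so, but not every bright one. Because both untreated wild-type arrays are among the 3, comparisons with that group cannot be fitted without them; the others are given below with and without knockout tBuHQ array 1. Genes outside the endothelium divided alike: Ptprf, a receptor tyrosine phosphatase, read 987 on knockout tBuHQ array 1, 970.5 and 1028 on the untreated wild-type arrays and 187 to 296 on the other 5. Whether biology or the preparation of these pools divides the arrays was not tested.

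Among the growth factor receptors and their regulators, Kdr, Flt4 and Ptprb were lower in unfractionated RNA of untreated knockout than of untreated wild-type liver. Kdr encodes VEGFR2, the main signalling receptor for VEGF-A in endothelium. It read 55.8 and 51.5 in untreated knockout liver and 139 and 176 in untreated wild-type liver, a log2 difference of -1.31 ± 0.32 (limma adjusted p = 0.0265). With tBuHQ it read 176 and 68.3 in knockout and 68.8 and 71.7 in wild-type liver. The pair of knockout tBuHQ pools thus spanned nearly the whole range of the gene. Within wild-type liver tBuHQ arrays were both below untreated arrays, at -1.0 ± 0.32, which did not pass (adjusted p = 0.0875), and within knockout liver both were above, at 0.87 ± 0.32 (adjusted p = 0.468).

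Flt4 encodes VEGFR3, the receptor for VEGF-C and VEGF-D, which sinusoidal endothelium shares with lymphatic vessels. Its signals were 40.1 and 29.7 in untreated knockout liver and 169 and 165 in untreated wild-type liver with no overlap, a difference of -1.85 ± 0.30 (limma adjusted p = 0.00829). Under tBuHQ, knockout arrays read 132 and 55.8 and wild-type arrays 33.5 and 41.7. tBuHQ liver was lower than untreated liver in wild type, by -1.78 ± 0.30 (adjusted p = 0.0134). In knockout liver both tBuHQ arrays were higher than both untreated ones, at 1.02 ± 0.30, without passing (adjusted p = 0.364). A second, dimmer Flt4 probe set read 41.7 and 8.41 in knockout and 12.9 and 22.8 in wild-type tBuHQ liver, and 14.6 and 3.62 in knockout and 36.0 and 61.7 in wild-type untreated liver. It was again high on the 3 arrays that stood apart.

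Ptprb encodes VE-PTP, an endothelial phosphatase that acts on Tie2, VEGFR2 and VE-cadherin. It had the largest differences of the 10 genes in both comparisons with untreated wild-type liver. Untreated knockout arrays read 116 and 75.9 against 460.1 and 446 in untreated wild-type liver, a difference of -2.09 ± 0.44 (limma adjusted p = 0.0134), which is 4.26-fold on the signal + 16 scale. With tBuHQ, knockout arrays read 370.3 and 103, and wild-type arrays 38.8 and 82.8. The effect of tBuHQ in wild type was -2.67 ± 0.44 (adjusted p = 0.0134), or 6.37-fold lower. A second Ptprb probe set gave -2.34 ± 0.44 for the same comparison (adjusted p = 0.0316 over all probe sets), from 67.3 and 54.8 with tBuHQ and 364 and 385 without. The third was at 0.853 to 37.7 on all 16 arrays, near the level of absent controls.

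Eng encodes endoglin, a co-receptor for TGF-beta and BMP ligands on endothelium. In unfractionated wild-type liver it was lower with tBuHQ, at 85.1 and 109, than without, at 261 and 265, a difference of -1.31 ± 0.35 (limma adjusted p = 0.0484) that lay at the threshold: the call ended with quantile normalization, with a pseudocount of 4, without the filter on low signals and with the mean of the probe sets. Knockout arrays read 259 and 94.4 with tBuHQ and 129 and 146 untreated. Here the untreated knockout pair lay between the tBuHQ pair, so the knockout tBuHQ difference was 0.19 ± 0.35 (adjusted p = 0.911). Untreated knockout arrays were below both untreated wild-type arrays, at -0.87 ± 0.35 (adjusted p = 0.147). The second Eng probe set was also highest on the 3 arrays that stood apart, at 101 on knockout tBuHQ array 1 and 82.3 and 127 in untreated wild-type liver, against 39.6 to 64.1 on the other 5.

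The clearance receptors behaved less uniformly. Stab1 and Stab2 encode stabilin-1 and stabilin-2, scavenger receptors for hyaluronan, modified lipoproteins and other waste. Stab1 read 41.4 and 37.1 in untreated knockout liver, against 127 and 107 in untreated wild-type liver, a difference of -1.27 ± 0.35 (limma adjusted p = 0.0443). With tBuHQ it read 128 and 48.2 in knockout and 42.2 and 54.6 in wild-type liver, and the wild-type tBuHQ difference of -1.05 ± 0.35 did not pass (adjusted p = 0.106). Stab2 varied within groups: 168 and 141 in knockout and 264 and 128 in wild-type tBuHQ liver, and 149 and 98.6 in knockout and 249 and 354 in wild-type untreated liver. It passed in none of the comparisons between unfractionated groups.

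Fcgr2b, the inhibitory Fc gamma receptor that takes up immune complexes in these cells, read 269 and 266 in untreated knockout liver and 531 and 723 in untreated wild-type liver, a difference of -1.17 ± 0.30 (limma adjusted p = 0.0302). Fcgr2b is also expressed by macrophages and B cells. With tBuHQ the pairs were 625 and 426 in knockout and 458 and 448 in wild-type liver, and the wild-type tBuHQ difference was -0.44 ± 0.30 (adjusted p = 0.426). Another Fcgr2b probe set read 248 and 267 in knockout and 249 and 316 in wild-type tBuHQ liver. In untreated liver it read 161 and 168 in knockout and 250.5 and 315 in wild type. It therefore did not separate the arrays that stood apart from the rest. A brighter one overlapped too, while a dimmer one did separate them. Clec4g encodes LSECtin, a C-type lectin of sinusoidal endothelium. It read 452 and 395 in untreated knockout liver, below every other unfractionated array, which lay at 600.5 to 854. Its difference from untreated wild type was -0.79 ± 0.28 (adjusted p = 0.105), and the tBuHQ differences were 0.90 ± 0.28 in knockout liver (adjusted p = 0.384) and -0.16 ± 0.28 in wild-type liver (adjusted p = 0.780). For Fcgr2b and Clec4g, as for Kdr and Stab1, the untreated knockout pools were the lowest of all 8 unfractionated arrays, whereas for Ptprb the lowest array was a wild-type tBuHQ pool.

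Adgrf5, an adhesion G protein-coupled receptor of capillary and sinusoidal endothelium, was lower in untreated knockout liver, at 40.1 and 59.8, than in untreated wild-type liver, at 210.3 and 223. The difference was -1.84 ± 0.28 (limma adjusted p = 0.00787). It was lower with tBuHQ in wild-type liver too, at 58.1 and 68.8, a difference of -1.55 ± 0.28 (adjusted p = 0.0144), while knockout tBuHQ arrays read 108 and 59.8. For this gene knockout tBuHQ array 1 was intermediate, above the other 5 and well below the untreated wild-type arrays. Pecam1, the junctional adhesion molecule CD31, was the dimmest of the tested probe sets relative to absent controls, whose highest signal was 15.1. It read 39.5 and 7.08 in knockout and 36.4 and 34.5 in wild-type tBuHQ liver, and 17.1 and 25.2 in knockout and 47.4 and 87.3 in wild-type untreated liver, and passed in no comparison.

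Counted together, 6 of the 10 genes were lower in untreated knockout than in untreated wild-type unfractionated RNA (Ptprb, Kdr, Stab1, Fcgr2b, Flt4 and Adgrf5), where 6.27% of all genes were called lower. The median log2 difference of the 10 genes was -1.23, against -0.03 over all genes. For tBuHQ in wild-type liver 4 of the 10 were lower (Ptprb, Eng, Flt4 and Adgrf5), against 3.86% of all genes, with medians of -1.03 for the members and -0.03 for all genes. Both comparisons use the same 2 untreated wild-type arrays, so they are not independent of each other. Each count rested on single arrays. Without either untreated wild-type array, or without knockout untreated array 1, 0 members were called between the genotypes, and without knockout untreated array 2 only Adgrf5 was. For tBuHQ in wild-type liver 0 were called without either untreated array or without wild-type tBuHQ array 1, and only Ptprb without wild-type tBuHQ array 2. Under every other left-out array 3 to 6 were called for tBuHQ and 5 to 7 for genotype.

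For tBuHQ in knockout liver limma called 0 of the 10 genes and 0% of all genes, with 1012 at an unadjusted p under 0.05. The member median was 0.84 against 0.00 over all genes, and 9 of 10 differences were above 0, against 50.2% over all genes. Without the 3 arrays that stood apart, which leaves knockout tBuHQ array 2 as the only array of its group and assumes that it varies like the others, the differences were 0.11 ± 0.41 for Ptprb, 0.28 ± 0.30 for Kdr, 0.50 ± 0.31 for Flt4, 0.64 ± 0.35 for Fcgr2b, 0.81 ± 0.37 for Clec4g and 0.19 to 0.22 for Stab2, Adgrf5 and Stab1. Eng was then at -0.47 ± 0.34, where it had been at 0.19, and Pecam1 at -0.68 ± 0.56. None passed. Leaving out knockout tBuHQ array 2 instead, limma called Kdr and Flt4 higher with tBuHQ and Ptprb higher than in wild-type tBuHQ liver. Between knockout and wild-type tBuHQ liver 0 members passed and 0.00823% of all genes were called, with 841 at an unadjusted p under 0.05. Ptprb differed by 1.54 ± 0.44 (adjusted p = 0.461), and by 0.69 ± 0.41 without the 3 arrays, where the other 9 genes lay between -1.16 (Pecam1) and 0.43 (Flt4) and none passed.

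**Figure D2:**
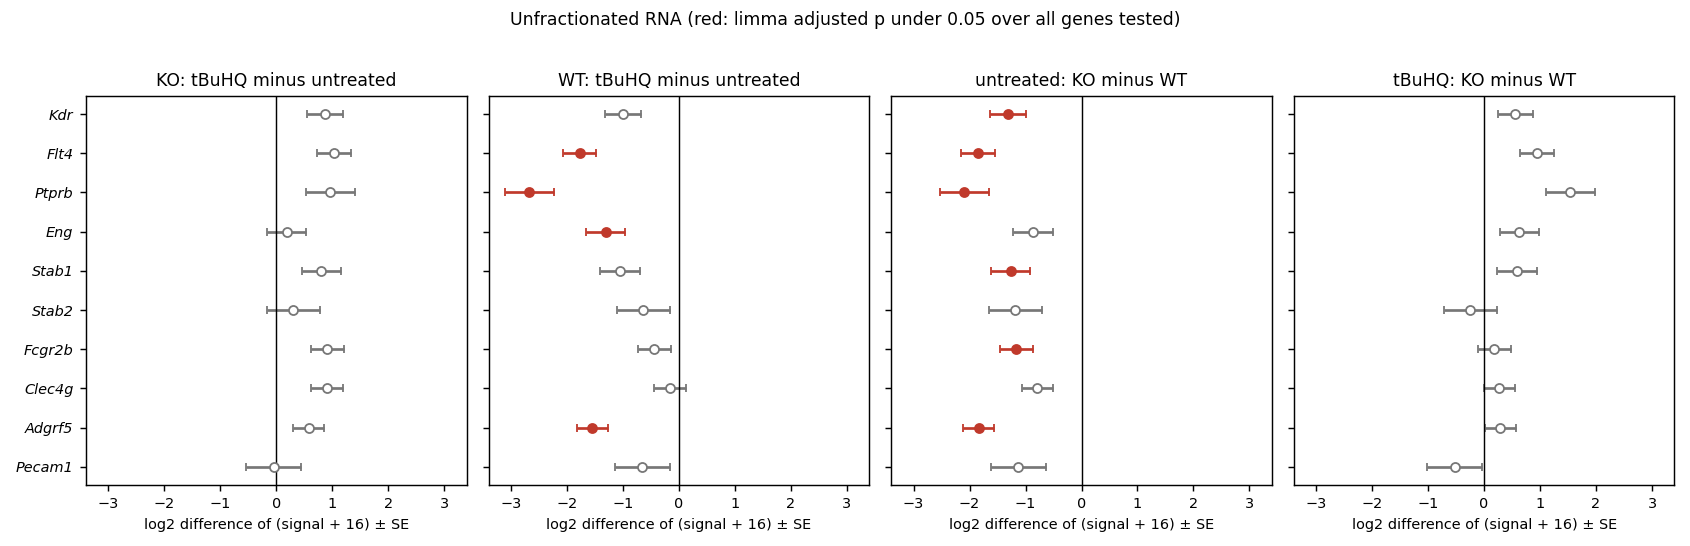
Log2 difference of signal + 16 with its standard error (x axis) for each endothelial gene (rows) in 4 comparisons of unfractionated RNA, each titled with the group on top of the difference first; filled red points passed limma's adjusted p of 0.05 over all genes. All 10 points lie left of 0 for tBuHQ in wild-type liver, where 4 passed, and for untreated knockout against wild type, where 6 passed, and none passed in the other panels.

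The tBuHQ effect differed between the genotypes in unfractionated RNA for 5 of the 10 genes. The knockout effect minus the wild-type effect was 3.63 ± 0.62 for Ptprb, 2.80 ± 0.43 for Flt4, 2.13 ± 0.39 for Adgrf5, 1.87 ± 0.45 for Kdr and 1.85 ± 0.50 for Stab1, with limma adjusted p-values of 0.00811, 0.00716, 0.00936, 0.0284 and 0.0437. Over all genes 4.89% were called in this direction. Of the other 5 genes, Eng (1.5 ± 0.50), Fcgr2b (1.35 ± 0.42), Clec4g (1.06 ± 0.40), Stab2 (0.94 ± 0.67) and Pecam1 (0.61 ± 0.69) also lay above 0 without passing. This difference uses all 8 unfractionated arrays, and the 3 that stood apart enter it with the same sign. Without knockout tBuHQ array 1 it was called for Ptprb and Flt4 alone, and without untreated wild-type array 2 for 0 members. Without any one of untreated wild-type array 1, the tBuHQ wild-type arrays or the untreated knockout arrays, it was called for Ptprb, Flt4 and Adgrf5.

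Polysome RNA is mRNA carrying several ribosomes. Kdr read 120.3 and 103 in knockout and 78.3 and 102 in wild-type tBuHQ polysomes, and 48.2 and 70.6 in knockout and 69.7 and 73.8 in wild-type untreated polysomes. Flt4 read 72.3 and 61.8 in knockout and 70.4 and 85.9 in wild-type tBuHQ polysomes, and 47.1 and 36.4 in knockout and 34.3 and 40.6 in wild-type untreated polysomes. In both genotypes, tBuHQ polysome arrays of Flt4 and of Kdr were above untreated polysome arrays of the same genotype. Flt4 differed by 0.81 ± 0.30 in wild-type polysomes (limma adjusted p = 0.437) and Kdr by 0.77 ± 0.32 in knockout polysomes, and neither passed.

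Eng went the other way in polysome RNA. It read 243 and 178 in knockout and 140.0 and 109.5 in wild-type tBuHQ polysomes, and 299.6 and 399 in knockout and 294 and 203 in wild-type untreated polysomes, so that tBuHQ arrays were below untreated arrays in each genotype without overlap. The differences were -0.69 ± 0.35 in knockout polysomes and -0.90 ± 0.35 in wild-type polysomes (limma adjusted p = 0.876 and 0.449). Averaged over the 4 genotype and fraction strata, tBuHQ differed by -0.68 ± 0.18 for Eng (adjusted p = 0.152), by 0.52 ± 0.15 for Fcgr2b (adjusted p = 0.202) and by 0.31 ± 0.14 for Clec4g, and the other 7 genes lay between -0.23 and 0.23. None passed.

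Ptprb read 118 and 93.9 in knockout and 151 and 200.2 in wild-type tBuHQ polysomes, and 112 and 73.3 in knockout and 133 and 88.7 in wild-type untreated polysomes. Adgrf5 read 46.8 and 70.1 in knockout and 66.6 and 80.6 in wild-type tBuHQ polysomes, and 34.5 and 32.9 in knockout and 34.5 and 35.1 in wild-type untreated polysomes. The untreated polysome arrays of Adgrf5 were alike in both genotypes, whereas in unfractionated RNA it had the lowest adjusted p of the 10 genes between the untreated genotypes. Fcgr2b read 285 and 238 in knockout and 252 and 341 in wild-type tBuHQ polysomes, and 181 and 142 in knockout and 106 and 195 in wild-type untreated polysomes, with a wild-type tBuHQ difference of 0.95 ± 0.30 (limma adjusted p = 0.354). Stab1 stayed at 21.6 to 45.4 on all 8 polysome arrays and Pecam1 at 4.35 to 36.3. Stab2 ranged from 69.8 to 355 and Clec4g from 264 to 522, with overlapping groups for tBuHQ in wild-type polysomes.

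None of the 10 genes passed in any of the 5 comparisons among polysome groups: tBuHQ in knockout and in wild-type liver, genotype with and without tBuHQ, and the difference of the tBuHQ effects. Few of all genes did: 0% for tBuHQ in knockout and 0.0165% in wild-type polysomes, 0.00823% for genotype both with tBuHQ and untreated, and 0% for the difference of effects. At an unadjusted p under 0.05 limma had 702 genes for tBuHQ in knockout and 1146 in wild-type polysomes, 1078 for genotype with tBuHQ and 805 untreated, and 618 for the difference of effects. The member medians were 0.26, 0.29, -0.14, 0.01 and -0.09 in the same order. For tBuHQ, 9 of 10 member differences were above 0 in each genotype, against 49.0% of all genes in knockout and 54.7% in wild-type polysomes. Untreated knockout and wild-type polysomes, where the unfractionated arrays differed most, gave differences between -0.77 (Stab2) and 0.47 (Eng). Whether the genotype difference itself differs between fractions was not tested.

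**Figure D3:**
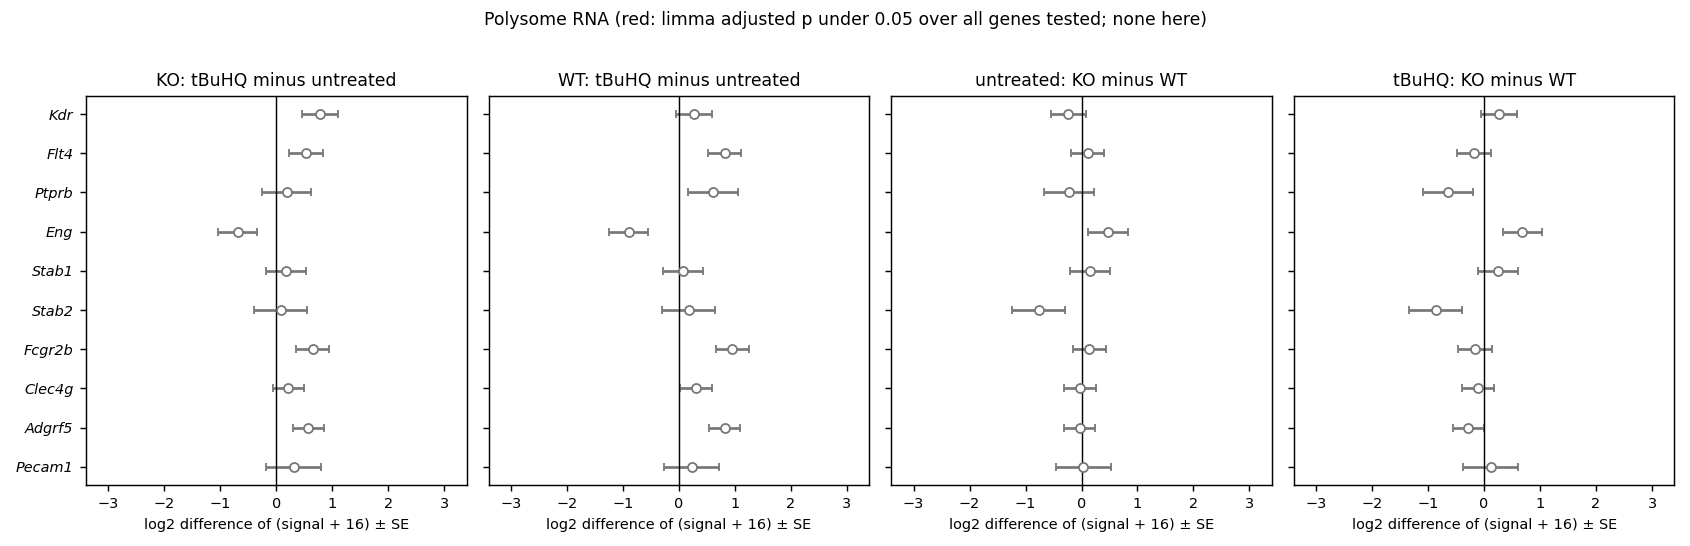
Log2 difference of signal + 16 with its standard error (x axis) for each endothelial gene (rows) in 4 comparisons of polysome RNA, drawn as for unfractionated RNA with the group on top of the difference named first. None of the points passed limma's adjusted p of 0.05, and the tBuHQ points of Eng lie left of 0 in both genotypes.

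Averaged over the 4 treatment and fraction strata, polysome and unfractionated RNA together gave knockout minus wild-type differences of -0.76 ± 0.24 for Stab2 and -0.46 ± 0.14 for Adgrf5 (limma adjusted p = 0.223 and 0.220), and -0.38 to 0.23 for the other 8. None passed, and 0.156% of all genes did. For tBuHQ averaged over its 4 strata 0.0494% of all genes passed. At an unadjusted p under 0.05 limma had 1472 genes for genotype and 1132 for tBuHQ.

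Polysome RNA was then set against unfractionated RNA of the same condition. This ratio compares shares within RNA samples of different composition scaled to the same mean, and does not measure ribosomes per mRNA. The labels do not say whether arrays of the fractions came from the same livers. High acinar signal in both fractions of the same replicate number, given below, hints that some did, and these tests did not pair them. Averaged over the 4 genotype and treatment strata, 4 of the 10 genes were lower in polysome RNA: Fcgr2b by -1.05 ± 0.15, Clec4g by -0.90 ± 0.14, Adgrf5 by -0.70 ± 0.14 and Stab1 by -0.70 ± 0.18 (limma adjusted p = 0.000138, 0.000311, 0.00166 and 0.00825). Lower calls were made for 11.8% of all genes. The member median was -0.40 against -0.02 over all genes. Leaving out single arrays gave 4 to 6 called members.

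Clec4g and Fcgr2b were lower in polysome RNA in each stratum separately by value. Clec4g read 264 to 522 on the 8 polysome arrays and 395 to 854 on the 8 unfractionated arrays. Within each stratum the 2 polysome arrays were below the 2 unfractionated arrays for both genes. Eng stood at the other side: 299.6 and 399 in untreated knockout polysomes against 129 and 146 in unfractionated RNA, a difference of 1.24 ± 0.35 (limma adjusted p = 0.0379), with 5.85% of all genes called higher there. Over the 4 strata Eng differed by 0.46 ± 0.18 (adjusted p = 0.0680), the only one of the 10 with a mean above 0. None of the 3 arrays that stood apart enters the untreated knockout difference of Eng, but all 3 enter its mean over the 4 strata. Without those 3 the untreated knockout difference was the same, with a smaller standard error (1.24 ± 0.27). The call ended without any one of the 4 untreated knockout arrays or of the untreated wild-type unfractionated arrays, with quantile normalization over all arrays and without the filter. The second Eng probe set read 117 and 109 in untreated knockout polysomes and 42.6 and 39.6 in the unfractionated arrays.

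In untreated wild-type liver, where both unfractionated arrays stood apart, 3 of the 10 genes were lower in polysome RNA: Adgrf5 by -2.20 ± 0.28, Fcgr2b by -1.99 ± 0.30 and Flt4 by -1.78 ± 0.30 (limma adjusted p = 0.00252, 0.00584 and 0.0166). Lower calls were made for 0.634% of all genes, and the member median was -1.44 against -0.01 over all genes. Ptprb (-1.91 ± 0.44), Stab1 (-1.54 ± 0.35) and Clec4g (-1.22 ± 0.28) had adjusted p-values of 0.0576. In wild-type tBuHQ liver Ptprb was instead higher in polysome RNA, at 151 and 200.2 against 38.8 and 82.8, a difference of 1.37 ± 0.44 (adjusted p = 0.0473), with 10.8% of all genes called higher, so that a single member called is near the background. Neither group holds any of the 3 arrays that stood apart. Without those 3 the Ptprb difference was the same, with a smaller standard error (1.37 ± 0.34). Leaving out any 1 array other than a knockout tBuHQ unfractionated one ended the Ptprb call, as did quantile normalization, no filter and the mean of the probe sets. In knockout tBuHQ liver 0 members passed and 0.659% of all genes did, with 1628 genes at an unadjusted p under 0.05; the nearest was Clec4g at -1.15 ± 0.28 (adjusted p = 0.0869). Without the 3 arrays that stood apart, Clec4g differed there by -1.06 ± 0.37 (adjusted p = 0.220), Eng by 1.02 ± 0.34, Pecam1 by 0.81 ± 0.56 and Kdr by 0.60 ± 0.30, the other 6 lay between -0.68 (Fcgr2b) and 0.21 (Flt4), and none passed. Without unfractionated wild-type untreated array 1, 0 members were called in untreated wild-type liver, and without its array 2 or without polysome array 1 only Adgrf5 was; without either wild-type tBuHQ polysome array 6 members were called, and Clec4g was called in knockout tBuHQ liver. These comparisons share the untreated wild-type unfractionated arrays with those above.

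**Figure D4:**
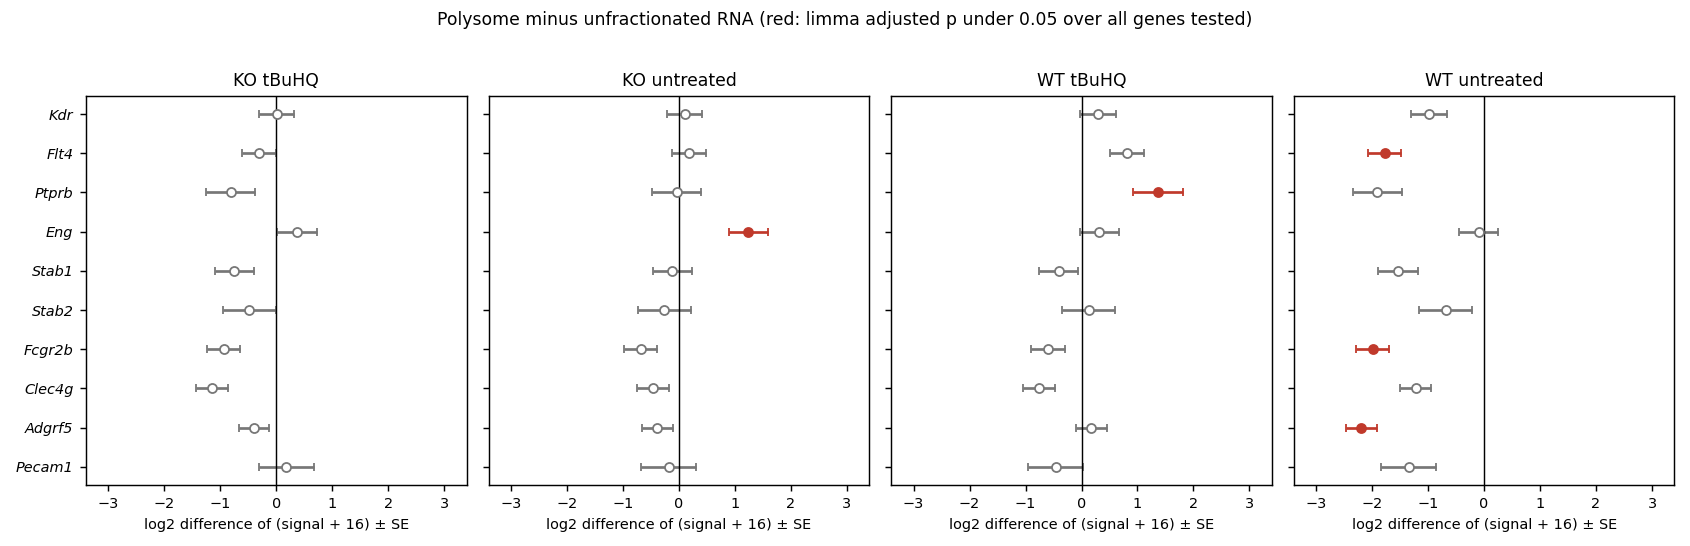
Log2 difference of signal + 16 between polysome and unfractionated RNA with its standard error (x axis) for each endothelial gene (rows), in each genotype and treatment; filled red points passed limma's adjusted p of 0.05 over all genes. Clec4g and Fcgr2b lie left of 0 in every panel, and Eng is the one gene that passed to the right in untreated knockout liver.

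The members did not vary as 1 block. As a description over the 8 unfractionated arrays, which share the scaling and the division of the arrays, each gene's log2 signal correlated with the mean of the other 9 at 0.973 for Kdr, 0.970 for Flt4, 0.957 for Stab1, 0.936 for Adgrf5, 0.889 for Ptprb, 0.856 for Eng, 0.841 for Fcgr2b, 0.725 for Pecam1, 0.653 for Stab2 and 0.647 for Clec4g. Over the 8 polysome arrays the values were 0.899 for Flt4, 0.795 for Adgrf5, 0.774 for Fcgr2b, 0.709 for Kdr, 0.467 for Clec4g and 0.432 for Ptprb, but 0.0837 for Pecam1, 0.00473 for Stab1, -0.271 for Stab2 and -0.888 for Eng. Eng therefore moved with the other endothelial genes in unfractionated RNA and against them in polysome RNA. Among genes that are no member, those whose 16 signals were most like the members' mean were Fkbp9 (Pearson r = 0.951), Itgb1 (0.945), Pdgfrb (0.943), Reln (0.943), Aqp1 (0.942), Col14a1 (0.935), Apob (0.921), Sptbn1 (0.920), Gsn (0.918) and Tek (0.911), each over 16 arrays. Tek encodes the angiopoietin receptor Tie2 and Aqp1 a water channel of endothelium. Pdgfrb and Reln are markers of hepatic stellate cells, the pericytes of the sinusoid, and Apob is a product of hepatocytes.

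A wider set of 62 endothelial genes, of which 53 were tested, was grouped by role. In untreated knockout against untreated wild-type unfractionated RNA 5 were lower: Bmpr2 (a BMP receptor, -2.59 ± 0.43), Aqp1 (-2.0 ± 0.31), Nrp1 (a VEGF and semaphorin co-receptor, -1.90 ± 0.45), Mrc1 (the mannose receptor, -1.30 ± 0.32) and S1pr1 (a sphingosine-1-phosphate receptor, -1.02 ± 0.28). These are 9.43% of the 53, against 6.27% of all genes, so the count is near the background. For tBuHQ in wild-type liver 5 were lower: Nrp1 (-2.14 ± 0.45), Bmpr2 (-2.12 ± 0.43), Cd93 (-1.57 ± 0.41), Icam1 (an adhesion molecule for leukocytes, -1.30 ± 0.31) and Aqp1 (-1.16 ± 0.31), again 9.43% of the 53, against 3.86% of all genes. The medians over the 53 genes were -0.53 and -0.45, less far from 0 than those of the 10 members. The knockout minus wild-type tBuHQ effect was above 0 for Bmpr2 (3.49 ± 0.61), Nrp1 (2.91 ± 0.64), Aqp1 (2.50 ± 0.44), Mrc1 (1.85 ± 0.45) and Icam1 (1.70 ± 0.44), all past limma's threshold, which 4.89% of all genes passed in this direction. These too are 9.43% of the 53. With only 5 genes called in each comparison, these shares stand little above those of all genes.

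By role, the 3 arrays that stood apart were all above the other 5 for 6 of 11 receptor and signalling genes, 4 of 10 scavenger and uptake genes, 7 of 13 junction and matrix genes, 2 of 12 transcription factors and 0 of 7 angiocrine factors, against 17.1% of all genes; the share of the transcription factors was at that background. Nrp1 read 479.5 and 159 in knockout and 98.1 and 170.3 in wild-type tBuHQ liver, and 134 and 183 in knockout and 524 and 754 in wild-type untreated liver. Like Kdr, Flt4 and Ptprb it was high on the 3 arrays that stood apart. Endothelial transcription factors, such as Gata4, Sox18 and Klf2, summed to 1319 to 1683 in knockout and 1251 to 1288 in wild-type tBuHQ liver, and to 1470 to 1643 in knockout and 1559 to 1827 in wild-type untreated liver. These sums overlap between the genotypes in untreated liver, where the sums over the 10 members do not. In wild-type liver the tBuHQ sums lay below the untreated sums without overlap. Maf alone read 669 and 804 on the untreated wild-type arrays, so 1 bright gene weighs heavily in these sums.

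Against unfractionated RNA, averaged over strata, 17 of the 53 genes were lower and 2 higher in polysome RNA, where 11.8% of all genes were lower. The share of all genes called higher is not given here, so the 2 higher calls cannot be set against a background. Junction and matrix genes were lower for 8 of 13, among them Cdh5 (VE-cadherin, -0.83), Egfl7, Icam2, Emcn, Cldn5, Esam, Robo4 and Vcam1. Scavenger and uptake genes were lower for 6 of 10, among them Plvap (a protein of endothelial diaphragms, -1.32), Gpihbp1 (which carries lipoprotein lipase, -1.17), Mrc1 (-0.97) and Aqp1 (-0.91). Receptor genes were lower for 2 of 11 and higher for 1, Bmpr2 (1.35). Of 12 transcription factors 1, Maf (0.68), was higher, and of 7 angiocrine factors 1, Wnt2, was lower. With counts this small, the shares of receptor and angiocrine genes called lower were near that of all genes. Gpihbp1 was lower in polysome RNA in wild-type liver with tBuHQ (-1.66) and untreated (-1.46) and in knockout liver with tBuHQ (-1.22), each past limma's threshold.

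Markers of other cells were read in the same comparisons. Stellate markers, of which 10 were tested, moved with the endothelial genes: 5 were lower in untreated knockout than wild-type liver (median -0.94), 4 were lower with tBuHQ in wild-type liver (median -0.98), and 6 were higher on each of the 3 arrays that stood apart. Their summed signal was 2123 to 2241 in untreated knockout liver and 4886 to 4963 in untreated wild-type liver. With tBuHQ it was 3889 to 5167 in knockout and 4278 to 4622 in wild-type liver. The stellate sum thus fell less with tBuHQ in wild-type liver than the endothelial sum given below. The median log2 differences were alike, at -0.98 for the stellate and -1.03 for the endothelial genes, with 4 of 10 lower in each list. Linear sums weigh the bright probe sets most, so they do not show that the lists differ. Of 11 Kupffer cell markers 1 was lower in each of these comparisons (medians -0.12 and 0.34), and 2 were higher on each of the 3 arrays. Of 9 hepatocyte markers 2 were lower for genotype and 1 for tBuHQ (medians 0.06 and 0.42), and 3 were higher on each of the 3 arrays. The summed signal of the 10 endothelial genes, which the brightest probe sets dominate, was 2859 and 1755 in knockout tBuHQ, 1184 to 1308 in untreated knockout, 1685 to 1764 in wild-type tBuHQ and 2871 to 3357 in untreated wild-type unfractionated RNA. In polysome RNA it was 1272 to 1427, 1172 to 1224, 1451 to 1613 and 1130 to 1259 in the same order of groups. Between the fractions, 10 of 11 Kupffer, 6 of 10 stellate and 6 of 9 hepatocyte markers were also lower in polysome RNA, with medians of -1.29, -0.59 and -0.30. The part of cell numbers in these results was not tested.

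**Figure D5:**
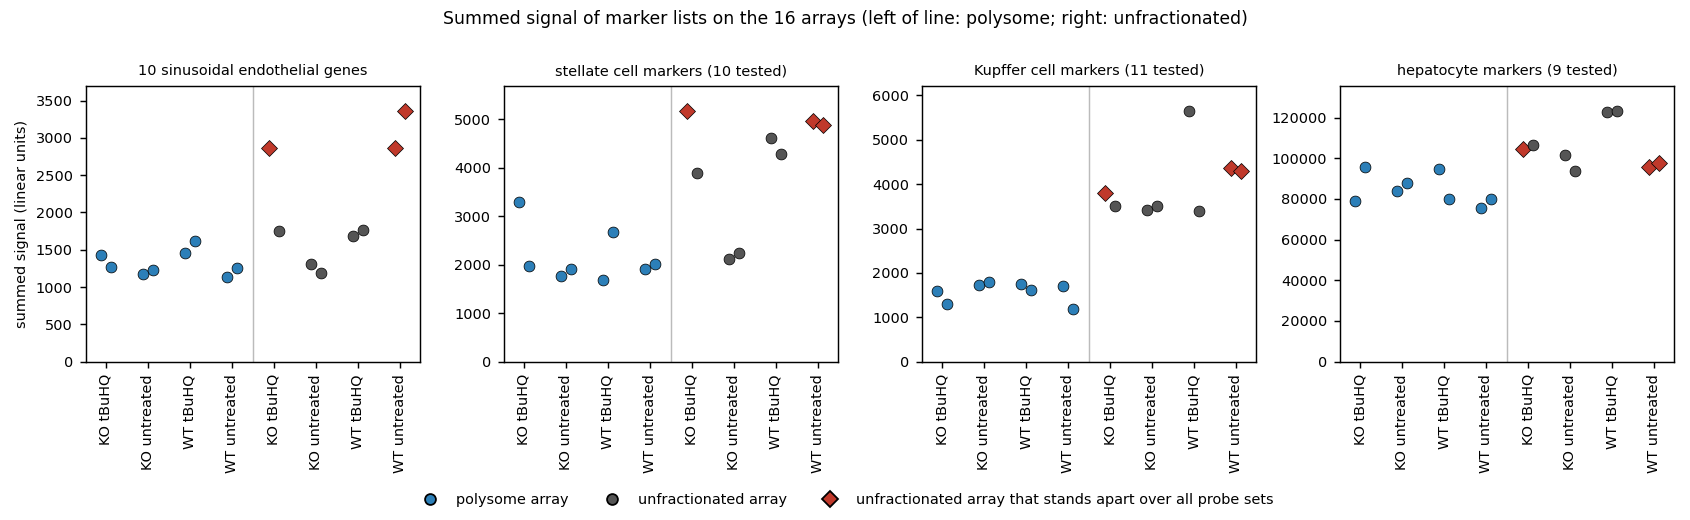
Summed signal (linear units, axes from 0) of the 10 endothelial genes and of the tested stellate, Kupffer cell and hepatocyte markers, 1 point per array, with polysome arrays left of the grey line and unfractionated arrays right of it. Diamonds mark the 3 unfractionated arrays that stood apart; they are the highest for the endothelial genes, at 2859 to 3357, and the untreated knockout arrays are the lowest unfractionated ones, at 1184 to 1308.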

How the data were processed

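RNA of 16 liver samples in 8 groups of 2 was hybridised to Affymetrix mouse arrays. Per the labels' protocols, each was a pool from 2 livers and 12 µg was labelled. The deposited values are signal intensities of 45101 probe sets on a linear scale, which the authors had scaled to a trimmed mean of 150 on every array, as the values show; the summarising software was not given in the sources used here. A deposited z score table of 18697 probe sets by the authors served only to check the labels: all 16 of its columns match an array of the opposite treatment (largest residual 0.00368 on the log10 scale), 4 of them with the other replicate number.

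The platform annotation named 34958 probe sets with 1 symbol, 932 with several and 9211 with none. For 34754 of the probe sets with 1 symbol, the symbol was taken by Entrez identifier from the GRCm38.p6 genes, whether or not it changed. The brightest probe set by mean stood for its gene, and those under the 40th percentile were left out. Differences of log2(signal + 16) were fitted with limma 3.58.1 in R 4.3.3 (lmFit, eBayes with trend; 8 group means over 16 arrays, 8 residual and 6.97 prior degrees of freedom) in 17 contrasts, with Benjamini-Hochberg adjustment over 12148 genes within a contrast. Errors are standard errors of that fit. The labels call the samples of a group biological replicates without saying which animals entered which pool; p-values measure the spread between these pools, and 2 arrays per group limit the precision. On simulated data for tBuHQ in wild-type unfractionated RNA (12148 genes), 78 of 100 genes changed by a log2 of 2 and 23 of 100 changed by 1 were recovered, with 5 false calls. The simulated noise was independent between genes and arrays and held no division of the arrays. These figures therefore do not show the rate of false calls in the real data.

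The members, the wider lists and the alternatives were chosen with earlier results of these data known. Named genes are the 10 members in every comparison, the deleted gene, the called genes of the wider endothelial lists and the 10 genes most correlated with the members' mean; Ptprf was added after its values were seen. Alternatives were quantile normalization over all arrays or within a fraction, a pseudocount of 4, no filter, the mean of a gene's probe sets, the replicate number as a block and leaving out each array. Leaving out the 3 arrays that stood apart and testing every probe set were added after seeing the data. The cholangiocyte, lymphocyte, neutrophil, erythroid, acinar and smooth muscle lists entered as counts on the 3 arrays only: all 3 were above the other 5 for 1 of 3 cholangiocyte genes and for 0 genes of the other lists, and summed acinar signals were 1936 (polysome) and 1387 (unfractionated) on knockout untreated arrays 1 and 1519 and 1895 on wild-type tBuHQ arrays 1, against 50.5 to 157 on the other 12. Promoter windows were read from RefSeq with Python 3.11.15.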

Additional observations from a re-analysis of the deposited data

Results flagged for a closer look

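The effect of tBuHQ in unfractionated RNA differed between the genotypes, by a test of the difference itself, for Ptprb (3.63 on the log2 scale, knockout effect minus wild-type effect), Flt4 (2.80), Adgrf5 (2.13), Kdr (1.87) and Stab1 (1.85). In polysome RNA the same difference lay between -0.42 and 0.50 for all 10 genes, and limma called 0 genes there, with 618 at an unadjusted p under 0.05; whether the difference between genotypes itself differs between the fractions was not tested. The 3 unfractionated arrays that stood apart over all probe sets, knockout tBuHQ array 1 and both untreated wild-type arrays, enter the difference with the same sign. Their part in it was not tested beyond leaving out single arrays: without knockout tBuHQ array 1 Ptprb and Flt4 were still called, without untreated wild-type array 1 Ptprb, Flt4 and Adgrf5 were, and without untreated wild-type array 2 none of the 10 was.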

How the results depend on the processing

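Over the 24 calls of members, 554 alternative values kept the direction of the difference: 412 were still called, 142 were not, and 0 reversed. The count of members called moved by more than 1.5 times as follows. For untreated knockout against wild type in unfractionated RNA (6 called), it was 3 with quantile normalization within each fraction and 3 with every probe set tested. For the difference of tBuHQ effects in unfractionated RNA (5 called), it was 3 with quantile normalization over all arrays, 3 within each fraction, 3 without the filter and 3 with every probe set tested. For polysome against unfractionated RNA it was 5 in untreated wild-type liver with quantile normalization within each fraction (3 called). The single calls of Eng in untreated knockout liver and of Ptprb in wild-type tBuHQ liver became 0 with quantile normalization over all arrays, without the filter and with every probe set tested, and that of Ptprb also became 0 with quantile normalization within each fraction and with the mean of the probe sets. The cause was not tested, except that testing more probe sets raises the adjustment.

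Leaving out 1 array at a time gave, in unfractionated RNA, 0 to 6 members for tBuHQ in wild-type and 0 to 2 in knockout liver, 0 to 7 for genotype untreated and 0 to 1 with tBuHQ, and 0 to 7 for the difference of effects. It gave 0 to 0 in every comparison of polysome groups and in the means over strata of tBuHQ and of genotype. Between fractions it gave 0 to 1 in knockout tBuHQ, 0 to 1 in untreated knockout, 0 to 2 in wild-type tBuHQ and 0 to 6 in untreated wild-type liver, and 4 to 6 for the mean. The lone array of a group is then assumed to vary like the others. All genes called ranged from 1 to 856 for tBuHQ in wild-type unfractionated RNA and from 0 to 1311 for genotype in untreated unfractionated RNA.

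With the replicate number as a block, 3 members were called for tBuHQ in wild-type unfractionated RNA (Eng was lost), and the member counts of the other 16 comparisons were as without it. The labels do not say whether a number marks shared livers. Deviations of same-numbered arrays correlated at -0.303 to 0.360 over 28 pairs of groups, with 9 above 0.1. Between the fractions of a condition the correlation was above 0 in all 4 cases (0.0822 in knockout tBuHQ, 0.327 in knockout untreated, 0.103 in wild-type tBuHQ and 0.0827 in wild-type untreated liver), and high acinar signal was in both fractions of the same number, which hints at shared livers in part; not all 4 were above 0.1, so the numbers were not treated as pairs. Signals of Pecam1 and of the dimmest probe sets of Ptprb, Fcgr2b, Clec4g, Adgrf5 and Flt4 lay on some arrays at or below those of absent controls, which limits what their differences show.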
